A study of Rattus norvegicus with 8 samples.

Results

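In all, 9 genes of astrocytes were followed in thoracic spinal cord of rats: the filament genes Gfap, Vim and Nes, and the channel and transport genes Aqp4, Kcnj10, Gja1, Gjb6, Slc1a2 and Slc1a3. They were chosen by symbol. A member was taken where the array's annotation gave a probe set that symbol and no other, and 9 of the 10 genes asked for were found among the 18166 genes tested. Glul, the glutamine synthetase, was not analysed here. Each of the 9 genes had 1 probe set. All values are log2 signals of Affymetrix Rat Gene 2.0 ST arrays, so a difference of 1 is a doubling of signal.

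The SCI group, 4 arrays, had an injury of the thoracic spinal cord (SCI), and the sham group, 4 arrays, had the laminectomy alone. The rats were males of the Long Evans strain, about 175 days old and 400 g in weight. After 4 weeks of surgical recovery on chow with 17% fat, every rat of both groups ate a high-fat diet with 40% fat, so the diet was common to SCI and sham and no lean control was compared. The labels state a total of 8 weeks without saying whether it counts from surgery or from the start of the diet, so tissue was taken 8 weeks or more after injury. The labels give the cord piece as thoracic segments 10 to 11 in 1 field and 11 to 12 in another, and do not give the level of the lesion, so the distance between lesion and sample is unknown. The design text names 10 rats, and the labels do not tie an array to a numbered rat; the p-values then measure the spread between these arrays, which may be technical.

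Astrocytes fill the spaces between neurons, vessels and the cord surface. Their shape is held by intermediate filaments, of which GFAP is the typical one in mature astrocytes, while vimentin and nestin are typical of immature and reactive cells. Their transport proteins clear what active neurons release: EAAT2 (Slc1a2, also called GLT-1) and EAAT1 (Slc1a3, also called GLAST) take up glutamate, Kir4.1 (Kcnj10) takes up potassium, aquaporin-4 moves water at the endfeet, and connexins 43 (Gja1) and 30 (Gjb6) join astrocytes by gap junctions. After injury astrocytes become reactive, a state known for more filament protein.

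Markers of spinal cord had clear signal in both groups. The neuronal gene Rbfox3 averaged 7.04 ± 0.23 in SCI and 7.66 ± 0.11 in sham, the myelin gene Mbp 10.98 ± 0.11 in SCI and 11.68 ± 0.07 in sham, and the thoracic positional gene Hoxc8 8.13 ± 0.09 in SCI and 8.08 ± 0.16 in sham (SD, n = 4 each), all above the median of all genes of 4.74. Of the other Hox genes examined, Hoxa7 fell by 0.41 (SE 0.11; limma adjusted p = 0.034) and Hoxc9 had -0.16 (SE 0.12; 0.43). Hoxc10, dimmer than that median, had 0.07 (SE 0.17). Array medians lay between 3.73 and 3.81. On the first principal component, with 45.6% of the variance, SCI arrays (14.2 to 30.25) and sham arrays (-25.27 to -19.62) lay apart. The second, with 11.2%, set SCI 3, sham 1 and sham 2 (-17.18 to -12.62) apart from the other 5 arrays (4.53 to 14.79). Values without these 3 arrays are given for the 9 genes and their related genes where a call was lost. That leaves 5 arrays, SCI 1, SCI 2 and SCI 4 against sham 3 and sham 4, and with so few a gene passes less easily.

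Injured cord had more signal of the main filament genes and a split among the transport genes. Vim was 2.28-fold and Gfap 1.75-fold the sham level, and the connexin gene Gja1 1.5-fold. The potassium channel gene Kcnj10 was 38.7% lower and the glutamate transporter gene Slc1a2 23.6% lower. Of the 9 genes 3 rose, 2 fell and 4 did not pass at an adjusted p under 0.05 (limma, Benjamini-Hochberg over all genes); over all genes 14.2% passed, with 7.1% of those tested higher and 7.06% lower. The groups did not overlap in 7 of the 9 genes, against 20.3% of all genes, with SCI above sham in 5 (9.36% of all genes) and below it in 2 (10.9%). Among these 7, the nearest arrays of the groups were 0.07 apart in Slc1a3, 0.06 in Slc1a2 and the same to 2 decimals in Aqp4.

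**Figure D1:**
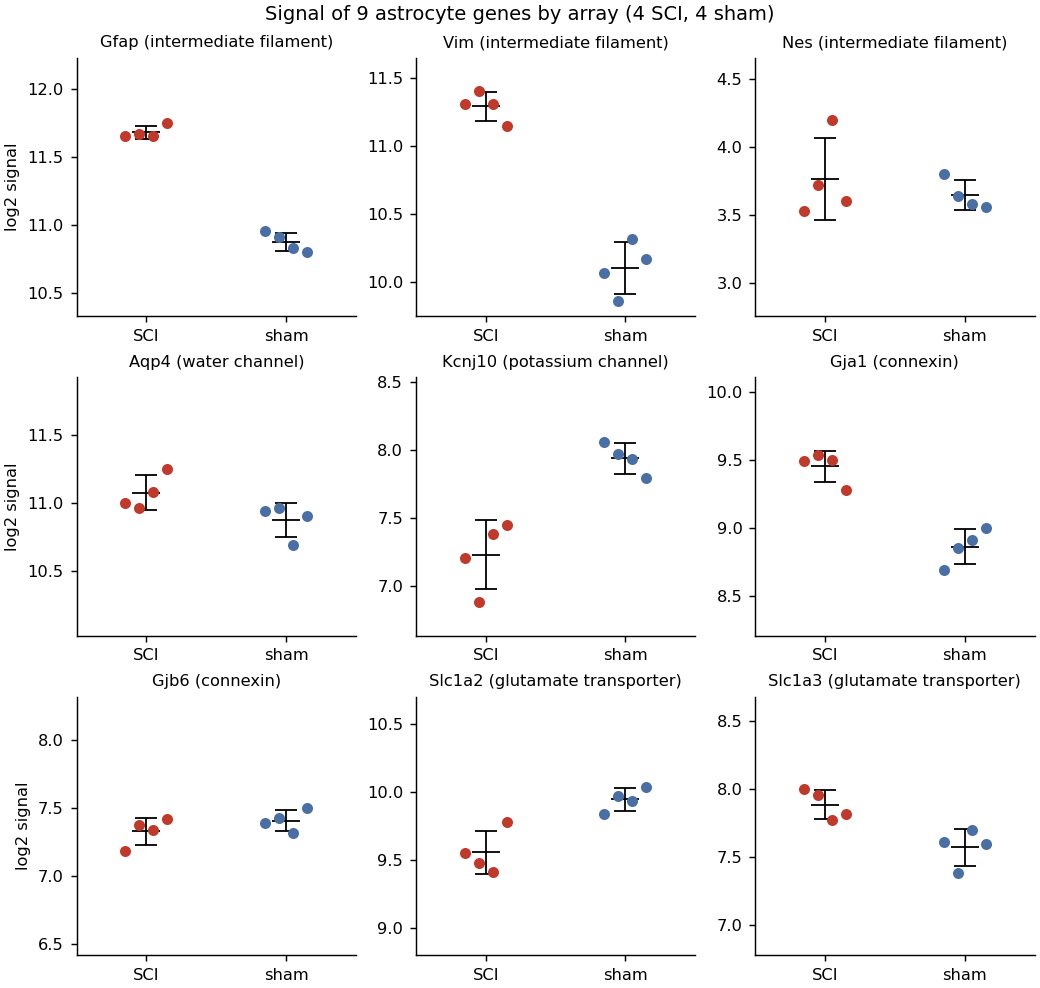
Log2 signal (vertical axis) of each of the 9 genes on the 4 SCI arrays (red, left) and 4 sham arrays (blue, right), with mean and SD in black. Every panel spans the same log2 range around its own centre, so distances can be compared between panels and absolute heights cannot. Gfap, Vim and Gja1 sit higher in SCI, Kcnj10 and Slc1a2 lower, and Nes and Gjb6 overlap.

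The promoters of the 5 genes that passed the test are shown because these genes moved in both directions and a reader can see what stands at their starts. Each window runs from 250 bases before to 50 after the start in RefSeq on the assembly GRCr8, 5′ to 3′ on the gene's strand, and of genes with several starts the most upstream is shown. Capitals mark letters that match 1 of 5 motifs on either strand. These were the STAT motif TTCNNNGAA, the AP-1 motif TGANTCA, the box known as CCAAT, the GC box, spelled GGGCGG here, and the core promoter motif TATAAA, called the TATA box below. No match overlapped another in these windows.
Gfap, chr10:88361612-88361911, minus strand: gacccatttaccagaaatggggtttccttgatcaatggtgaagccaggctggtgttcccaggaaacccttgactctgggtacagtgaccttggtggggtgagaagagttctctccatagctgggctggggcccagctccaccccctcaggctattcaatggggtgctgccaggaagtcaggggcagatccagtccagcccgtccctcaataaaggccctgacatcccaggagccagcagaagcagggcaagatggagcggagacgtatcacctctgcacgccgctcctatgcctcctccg
Vim, chr17:81577011-81577310, plus strand: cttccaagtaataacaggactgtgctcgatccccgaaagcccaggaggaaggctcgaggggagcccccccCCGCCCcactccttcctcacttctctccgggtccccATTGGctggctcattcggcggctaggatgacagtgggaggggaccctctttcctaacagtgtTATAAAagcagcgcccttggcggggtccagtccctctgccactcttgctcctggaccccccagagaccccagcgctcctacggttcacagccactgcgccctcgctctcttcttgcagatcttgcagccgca
Gja1, chr20:36302314-36302613, plus strand: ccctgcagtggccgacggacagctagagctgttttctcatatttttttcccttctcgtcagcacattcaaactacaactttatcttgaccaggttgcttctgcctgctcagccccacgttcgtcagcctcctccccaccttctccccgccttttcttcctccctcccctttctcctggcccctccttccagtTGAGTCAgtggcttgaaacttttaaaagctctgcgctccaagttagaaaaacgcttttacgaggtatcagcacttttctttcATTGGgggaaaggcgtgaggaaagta
Kcnj10, chr13:87334260-87334559, plus strand: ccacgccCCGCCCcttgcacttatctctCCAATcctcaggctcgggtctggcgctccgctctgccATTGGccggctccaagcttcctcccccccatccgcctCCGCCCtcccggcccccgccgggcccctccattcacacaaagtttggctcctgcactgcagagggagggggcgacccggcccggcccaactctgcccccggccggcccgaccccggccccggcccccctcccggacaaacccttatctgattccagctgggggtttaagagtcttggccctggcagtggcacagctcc
Slc1a2, chr3:109459859-109460158, plus strand: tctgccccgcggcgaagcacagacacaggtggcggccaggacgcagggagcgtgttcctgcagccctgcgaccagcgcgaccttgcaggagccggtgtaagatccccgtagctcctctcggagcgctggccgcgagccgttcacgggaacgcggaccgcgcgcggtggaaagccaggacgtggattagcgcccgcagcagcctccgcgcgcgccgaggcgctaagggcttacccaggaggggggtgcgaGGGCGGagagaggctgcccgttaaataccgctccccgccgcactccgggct

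The Gfap window held none of the 5 motifs, the Vim window 1 each of CCAAT, GC box and TATA box, the Gja1 window 1 AP-1 and 1 CCAAT match, the Kcnj10 window 2 CCAAT and 2 GC box matches, and the Slc1a2 window 1 GC box. Over the first windows of all 9 genes, 0 held the STAT letters, which 8.88% of 33365 RefSeq windows of the same length held, and 1 held the AP-1 letters, which 7.34% held. CCAAT stood in 4 of the 9 windows, against 37.5% of all windows, and GGGCGG in 6, against 33.1%. TATAAA stood in 1, against 14.2%. The share of G and C was 71.0% in Slc1a2, 70.3% in Kcnj10, 62.0% in Vim, 58.7% in Gfap and 50.3% in Gja1. In the 4 genes that did not pass it was 67.0% in Gjb6, 60.0% in Nes, 48.3% in Slc1a3 and 47.3% in Aqp4, and the median over all windows was 51.7%. These are matches of letters in a short window, and the binding of any factor was not measured.

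The filament genes come first. Vim (probe set 17717148), which encodes vimentin, had signals of 11.31, 11.41, 11.31 and 11.15 on the SCI arrays and 10.07, 9.86, 10.32 and 10.17 on the sham arrays. The lowest SCI array lay 0.83 above the highest sham array. Vim rose by 1.19 (SE 0.11, n = 4 each; limma adjusted p = 1.2e-04) and stood at rank 100 of 18166 genes by p.

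Gfap (probe set 17661998), the filament gene of mature astrocytes, read 11.65, 11.67, 11.65 and 11.75 in SCI and 10.95, 10.91, 10.83 and 10.8 in sham. Its arrays agreed closely within each group, with an SD of 0.05 in SCI and 0.07 in sham, and the groups lay far apart. The rise was 0.81 (SE 0.09; limma adjusted p = 2.3e-04). Gfap and Vim passed under each of the 18 alternative analyses, with Gfap between 0.61 and 0.88 and Vim between 1.04 and 1.26. The alternatives that change the probe set choice could not move these differences, because each of the genes had 1 probe set. The lowest Gfap value, 0.61, came with quantile normalisation.

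Nes (probe set 17739705), which encodes nestin, a filament protein of neural progenitors and of some reactive astrocytes, was dim, with a mean below the median of all genes in both groups. It read 3.53, 3.72, 4.2 and 3.6 in SCI and 3.8, 3.64, 3.58 and 3.56 in sham. SCI 3 was the highest array and the other SCI arrays lay within or near the sham range. The difference was 0.12 (SE 0.14; 95% interval -0.2 to 0.44; limma adjusted p = 0.67), and -0.02 without SCI 3. A change of the size seen in Gfap lies outside that interval, although RMA can compress the differences of dim probe sets.

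Of the channels, Kcnj10 (probe set 17682108), the inward rectifier through which astrocytes take up potassium, read 7.2, 6.88, 7.38 and 7.45 in SCI and 8.06, 7.97, 7.93 and 7.79 in sham. All 4 SCI arrays lay below all 4 sham arrays, and SCI 2 was the lowest. Kcnj10 fell by 0.71 (SE 0.13; limma adjusted p = 0.0054). Its adjusted p was 0.078 without SCI 3, sham 1 and sham 2, where the difference was -0.68.

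Aqp4 (probe set 17724939), the water channel of the endfeet, read 11, 10.96, 11.08 and 11.25 in SCI and 10.94, 10.96, 10.69 and 10.9 in sham. The lowest SCI array and the highest sham array were the same to 2 decimals. The difference was 0.2 (SE 0.1; 95% interval -0.03 to 0.43; limma adjusted p = 0.25). Aqp4 and Kcnj10 proteins sit together at endfeet, and set against its sham mean Kcnj10 was lower than Aqp4 by 0.91 in SCI, and the ratio of Kcnj10 to Aqp4 was 0.533 of the sham ratio.

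Gja1 (probe set 17755182), which encodes connexin 43, the main gap junction protein of astrocytes, read 9.49, 9.54, 9.5 and 9.28 in SCI and 8.69, 8.85, 8.91 and 9 in sham. The groups did not overlap. Gja1 rose by 0.59 (SE 0.1; limma adjusted p = 0.004), with an adjusted p of 0.085 and a difference of 0.48 without SCI 3, sham 1 and sham 2. Among the 6 channel and transport genes it was the 1 that passed upward.

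Gjb6 (probe set 17703315), which encodes connexin 30, the other connexin typical of astrocytes, read 7.19, 7.38, 7.34 and 7.42 in SCI and 7.39, 7.43, 7.32 and 7.5 in sham. The groups overlapped over most of their range. The difference was -0.08 (SE 0.09; 95% interval -0.28 to 0.13; limma adjusted p = 0.67), and the upper end of that interval is below the lower end of the interval of Gja1 (0.36 to 0.82). The ratio of Gja1 to Gjb6 was 1.59-fold the sham ratio in SCI.

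The glutamate transporter genes moved in different directions. Slc1a2 (probe set 17764304), whose product takes up most of the glutamate in the mature forebrain, read 9.55, 9.48, 9.41 and 9.78 in SCI and 9.84, 9.97, 9.93 and 10.04 in sham. All SCI arrays lay below all sham arrays, with SCI 4 0.06 below the lowest sham array. Slc1a2 fell by 0.39 (SE 0.11; limma adjusted p = 0.032). This call depended on the arrays used: the adjusted p was 0.064 to 0.088 without any 1 of SCI 1, SCI 2, SCI 3, sham 2, sham 3 and sham 4, 0.16 without SCI 3, sham 1 and sham 2 together, and 0.17 when the number in each sample's title was a covariate. That number was 4, 6, 7 and 8 in SCI and 5, 9, 10 and 11 in sham, so it partly follows the group.

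Slc1a3 (probe set 17745749), which also marks radial glia, read 8, 7.96, 7.77 and 7.82 in SCI and 7.61, 7.38, 7.7 and 7.6 in sham. All SCI arrays lay above all sham arrays, but the nearest arrays of the groups were 0.07 apart. The difference of 0.31 (SE 0.1; 95% interval 0.09 to 0.54) did not pass (limma adjusted p = 0.07). It passed with quantile normalisation (0.036), with an intensity trend in the spread (0.017) and among genes at or above the median alone (0.022). The ratio of Slc1a2 to Slc1a3 in SCI was 0.614 of the sham ratio, and lower on each SCI array (-0.85 to -0.41 on the log2 scale) than on any sham array (-0.14 to 0.22).

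**Figure D2:**
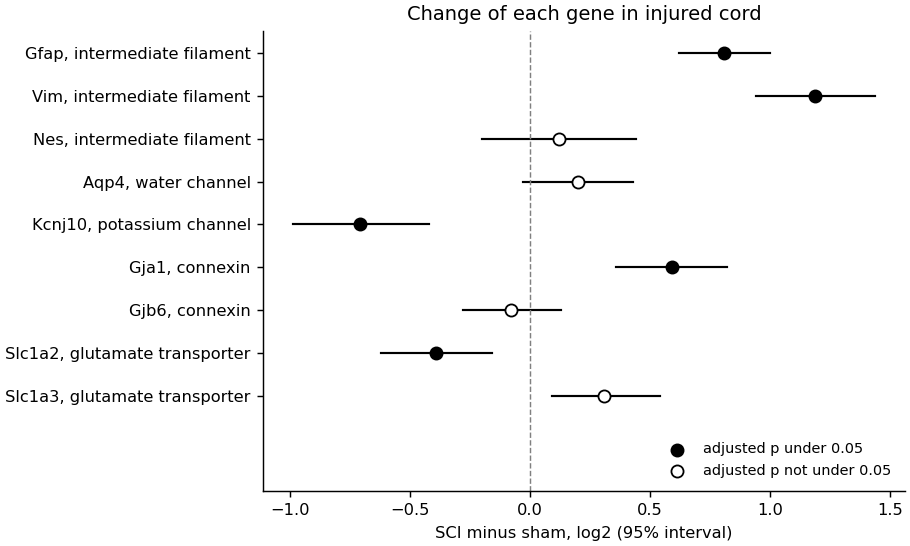
Difference of SCI minus sham on the log2 scale (horizontal axis) for each of the 9 genes, with its 95% interval from limma; filled points have an adjusted p under 0.05 over all genes. Vim, Gfap and Gja1 lie right of 0, Kcnj10 and Slc1a2 left of it, and the intervals of Nes, Aqp4 and Gjb6 include 0. The interval of Slc1a3 (0.09 to 0.54) lies right of 0, but its point is open.

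The filament genes were then set against the transport genes on each array. Every gene was first expressed relative to its own sham mean, because the signals of different probe sets cannot be compared as levels. The mean of the 3 filament genes was 0.63, 0.73, 0.85 and 0.63 on the SCI arrays and between -0.07 and 0.06 on the sham arrays. The mean of the 6 transport genes was -0.03, -0.07, -0.02 and 0.07 on the SCI arrays and between -0.02 and 0.04 on the sham arrays, so opposite moves within that class left its mean at the sham level.

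Filament minus transport was thus 0.72 ± 0.14 in SCI and 0 ± 0.08 in sham (SD, n = 4 each), and no SCI array (0.56 to 0.87) reached the sham range (-0.07 to 0.08). With Nes left out it was 1.01 ± 0.09 in SCI and 0 ± 0.09 in sham. No p is given for these means, because the genes were chosen with earlier results of these arrays known. The class mean also hides the members: of the 18 pairs of a filament and a transport gene, 15 shifted toward the filament gene, with a range of -0.47 to 1.9. These pairs restate the changes of the 9 genes and are not separate results. Vim (1.19) and Gfap (0.81) rose more than Gja1 (0.59), the transport gene with the largest rise, so all their pairs shifted that way.

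Vim gained on each of the 6 transport genes, with groups apart in 6 of 6 pairs and shifts of 0.6 (over Gja1) to 1.9 (over Kcnj10). Gfap gained on 6 of 6, with groups apart in 5, and the exception was Gja1, over which the shift was 0.22, with values of 0.13 to 0.46 in SCI and -0.21 to 0.26 in sham. Nes gained on 3 of 6 and stood apart from Kcnj10 alone. Within the filament genes, Vim gained 0.38 on Gfap, and the arrays of the groups overlapped (0.17 to 0.5 in SCI, -0.28 to 0.26 in sham).

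**Figure D3:**
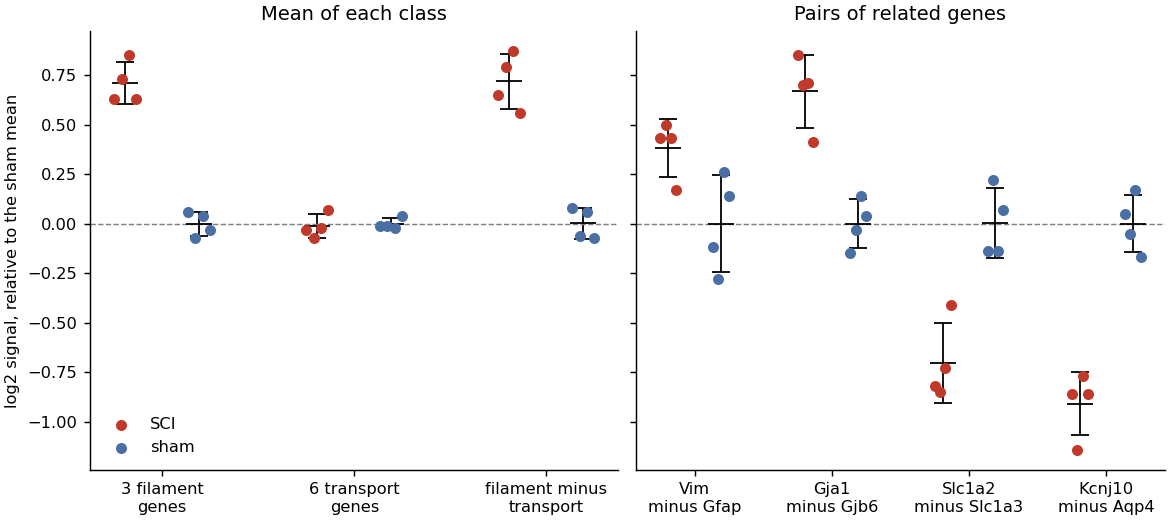
Left, mean log2 signal per array of the 3 filament genes, of the 6 transport genes and their difference, each gene relative to its sham mean; right, the difference within each array for 4 pairs of genes with related roles. Points are arrays (SCI red and left, sham blue and right) and black marks are mean and SD. The filament mean is higher on all 4 SCI arrays, and the transport mean is near 0 in both groups while its members part.

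Genes with related roles were counted in 7 lists. Over all genes tested, 7.1% rose and 7.06% fell, so a single call in a short list is near that share. Of 8 other intermediate filament genes and partners, 0 rose and 1 fell, and the median difference of these 8 was 0.1, against -0.01 over all genes tested. The fall was in Sync (-0.48, SE 0.13; limma adjusted p = 0.03), which encodes syncoilin. Synm, the filament partner synemin, had 0.08 (SE 0.11). Of this list of 11 genes, with the 3 described above, Gfap and Vim were the ones that rose.

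Of 22 genes of reactive astrocytes, 10 rose, 1 fell and 11 did not pass, with a median of 0.55. Among those that did not pass were Lcn2 (0.61, SE 0.71; limma adjusted p = 0.66), with 1 high array, SCI 2, and Serpina3n (0.4, SE 0.19; 0.21). Steap4 (0.06, SE 0.24; 0.92) and Aspg (0.4, SE 0.14; 0.079) did not pass either. The iron oxidase ceruloplasmin, Cp, rose by 2.22 (SE 0.19), the protease inhibitor Timp1 by 1.99 (SE 0.19), the small heat shock gene Hspb1 by 1.8 (SE 0.14) and the matrix protein Thbs2 by 1.35 (SE 0.12). The complement gene C3 fell by 0.85 (SE 0.14; limma adjusted p = 0.0027). The transcription factor Stat3, which acts upstream of Gfap in reactive astrocytes of mouse, rose by 0.59 (SE 0.09; limma adjusted p = 0.0021), and was chosen after its value was seen. Timp1, Thbs2 and other genes of this list are also made by fibroblasts or macrophages, whose own markers rose in the same arrays (10 of 12 macrophage and microglia genes, median 1.28; 4 of 10 fibroblast and pericyte genes, median 0.64), and the part of those cells in this list was not tested.

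Of 17 genes of astrocyte identity, 4 rose and 2 fell, with a median of 0.06. The lipid carriers Apoe and Clu rose by 1.88 (SE 0.1) and 0.79 (SE 0.1), the inhibitor of differentiation Id3 by 0.82 (SE 0.14), and the endfoot membrane gene Mlc1 by 0.58 (SE 0.1). Macrophages make Apoe too, and their part in its rise was not tested. The fallers were transporters: Slc6a11, which takes up GABA, fell by 0.48 (SE 0.12; limma adjusted p = 0.02), and Slc7a10, which carries small neutral amino acids, by 0.55 (SE 0.13; 0.019). The astrocyte transcription factor Sox9 had 0.01 (SE 0.15), at a signal below the median of all genes.

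Of 13 other genes of water channels and endfoot anchors, 3 rose and 1 fell, with a median of 0.09. Mlc1 is among them, as are dystroglycan, Dag1, which holds endfeet to the basement membrane (0.39, SE 0.09; limma adjusted p = 0.017), and the syntrophin gene Sntb2 (0.43, SE 0.11; 0.025). Dtnb, which encodes dystrobrevin beta, fell by 0.41 (SE 0.1; 0.017). The other aquaporins Aqp1 and Aqp9 had -0.11 (SE 0.14) and 0.09 (SE 0.16), and dystrophin, Dmd, had 0.05 (SE 0.09).

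Of 9 other connexins, pannexins and junction partners, 0 rose and 2 fell, with a median of -0.16. These were the neuronal connexin gene Gjd2 (-0.65, SE 0.18; limma adjusted p = 0.037) and the pannexin gene Panx2 (-0.67, SE 0.13; 0.0054). Gjb2, or connexin 26, had 0.51 (SE 0.18; 0.088), and Gjb1, the connexin 32 of myelinating cells, had -0.23 (SE 0.15). Gja1 was the gene of this list of 11 that rose.

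Of 9 other genes of potassium buffering and the sodium pump, 1 rose and 3 fell, with a median of -0.12. Fxyd1, a regulator of the pump, rose by 1.16 (SE 0.13; limma adjusted p = 3.6e-04). The cotransporter gene Slc12a2 fell by 0.54 (SE 0.12; 0.012), the pump subunit Atp1b1 by 0.41 (SE 0.1; 0.019) and the leak channel gene Kcnk1 by 0.37 (SE 0.11; 0.046). Kcnj16, which encodes the Kir5.1 partner of Kir4.1, had -0.12 (SE 0.13; 95% interval -0.4 to 0.16), and Atp1b2, the pump subunit typical of astrocytes, 0.13 (SE 0.09).

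Of 18 other genes of glutamate uptake and the glutamine cycle, 3 rose and 4 fell, with a median of -0.05. Those that rose were Slc3a2 (0.57, SE 0.09) and Slc7a11 (0.78, SE 0.15), the chains of the cystine and glutamate exchanger, and the glutamine carrier Slc38a1 (0.37, SE 0.08). Those that fell were the vesicular transporters of glutamatergic neurons Slc17a6 (-1.04, SE 0.14) and Slc17a7 (-0.52, SE 0.14), the aspartate aminotransferase Got1 (-0.65, SE 0.11) and the glutaminase Gls2 (-0.56, SE 0.1). The neuronal transporter Slc1a1 had -0.17 (SE 0.09; limma adjusted p = 0.25) and the astrocytic glutamine exporter Slc38a3 -0.07 (SE 0.1).

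Of the 34 called genes of these lists that are not among the 9, 12 lost the call without some 1 array, 17 without SCI 3, sham 1 and sham 2, and 14 when the title number was a covariate; none changed sign. Those named above that lost it without some 1 array were Sync, Slc7a10, Slc6a11, Dag1, Sntb2, Dtnb, Gjd2, Kcnk1, Atp1b1 and Slc17a7, with a highest adjusted p of 0.053 to 0.13. Without the 3 arrays Sync kept the call (limma adjusted p = 0.045), and the other 9 of these lost it, at 0.27 for Kcnk1, 0.24 for Slc6a11, 0.19 for Gjd2, 0.15 for Slc7a10, 0.13 for Sntb2, 0.12 for Slc17a7, 0.099 for Dtnb, 0.094 for Atp1b1 and 0.059 for Dag1. Panx2, Slc12a2, Gls2, Got1, Slc38a1 and Slc7a11, which kept the call without any 1 array, lost it without the 3, at 0.057 to 0.15. Over all 18166 genes, 1290 rose and 1282 fell on the 8 arrays. On the 5 arrays left without these 3, 563 rose and 284 fell. With the title number as covariate, 813 rose and 543 fell.

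On those 5 arrays, and leaving out the 9 genes, 9 reactive astrocyte genes rose and 1 fell, and 4 genes of astrocyte identity rose and none fell. Of the water channel and endfoot genes 1 rose and 0 fell, of the potassium and pump genes 1 rose and 0 fell, and of the glutamate genes 1 rose and 1 fell. Of the other connexins and pannexins none passed, and of the other filament genes 1 fell. Calls became fewer over all genes as well, with 563 higher against 1290 and 284 lower against 1282.

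**Figure D4:**
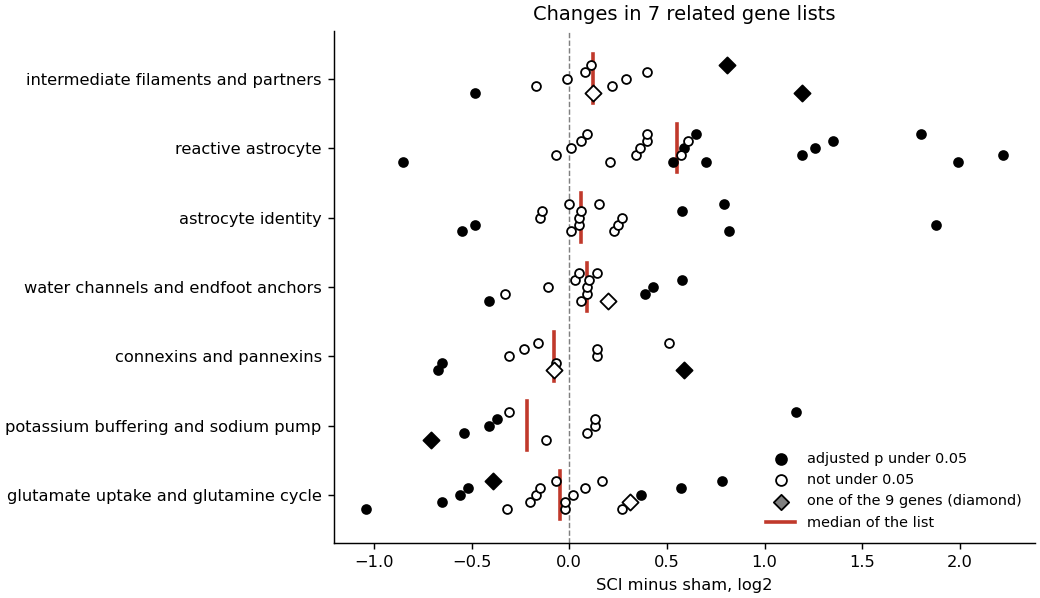
Difference of SCI minus sham on the log2 scale (horizontal axis) for each gene of 7 related lists (1 row each); filled symbols have an adjusted p under 0.05, diamonds are among the 9 genes, and the red bar is the median of the list. The reactive astrocyte list has a median of 0.55, and the medians of the other lists lie between -0.21 and 0.12.

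Some of the 9 genes, and of the related lists, are also expressed outside astrocytes, and markers of those cells moved in the same arrays. In whole tissue, fewer cells of a type and less RNA per cell cannot be told apart. The counts of markers stand against 7.1% of all genes higher and 7.06% lower, and a single call in a short list is near that share. Vimentin is made by macrophages, fibroblasts, vessel cells and Schwann cells as well. Of 12 macrophage and microglia genes 10 rose, and the summed linear signal of the list was 3.26 to 4.23 in SCI and 0.91 to 1.14 in sham, relative to the sham mean. That sum is weighted toward bright probe sets, and the median change of the 12 genes was 1.28. Gpnmb (4.93, SE 0.14) and Cd68 (4.17, SE 0.14) stood at ranks 1 and 2 of all genes by p, Cx3cr1 had 0.43 (SE 0.09; limma adjusted p = 0.012), and the microglial genes P2ry12 (0.45, SE 0.16; 0.085) and Tmem119 (-0.1, SE 0.17; 0.78) did not pass.

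Of 10 fibroblast and pericyte genes 4 rose, with a median of 0.64 (summed signal 1.24 to 1.74 in SCI, 0.77 to 1.18 in sham), and of 9 Schwann cell genes 3 rose and 2 fell (1.16 to 1.39 in SCI, 0.97 to 1.04 in sham). Of 8 endothelial genes 1 rose (0.94 to 0.97 in SCI, 0.94 to 1.07 in sham), and of 7 ependymal genes none passed (0.95 to 1.16 in SCI, 0.95 to 1.07 in sham), 6 of them dimmer than the median of all genes. On the 5 arrays left without SCI 3, sham 1 and sham 2, calls over all genes went from 1290 to 563 higher and from 1282 to 284 lower. There 8 macrophage and microglia genes, 2 fibroblast and pericyte genes, 3 Schwann cell genes and 0 endothelial genes rose, and none of these lists had a gene that fell. The part of these cells in the rise of Vim was not tested, nor was that of Schwann cells, which can express Gfap.

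Kcnj10 is expressed by oligodendrocytes too, and Slc1a2 by some neurons. Of 11 oligodendrocyte and myelin genes 9 fell (summed signal 0.58 to 0.69 in SCI, 0.97 to 1.02 in sham), and of 8 precursor genes 3 rose and 1 fell (1.14 to 1.2 in SCI, 0.97 to 1.06 in sham). Of 14 neuronal genes 13 fell (0.65 to 0.79 in SCI, 0.96 to 1.08 in sham). On the same 5 arrays, where 284 genes in all fell against 1282 on all arrays, 7 of the 11 myelin genes and 2 of the 14 neuronal genes fell. Their medians were -0.72 and -0.5, against -0.7 and -0.55 on all arrays, and none of the precursor genes passed. The part of these cells in the lower Kcnj10 and Slc1a2 signal was not tested.

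**Figure D5:**
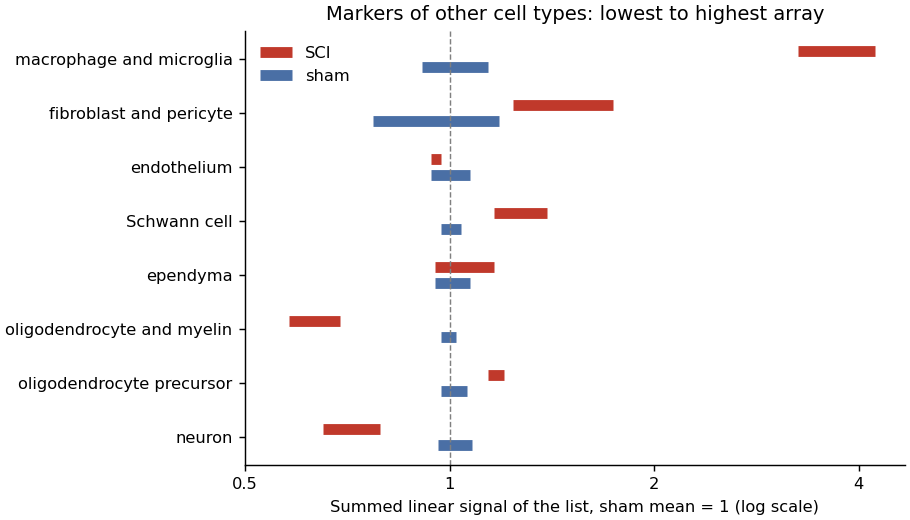
Summed linear signal of each marker list, from the lowest to the highest array of a group, relative to the sham mean (horizontal axis, log scale), with SCI in red above sham in blue. The macrophage and microglia list is higher in SCI, at 3.26 to 4.23, the neuronal and myelin lists are lower, and the endothelial and ependymal lists overlap.

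The genes whose values ran most like 3 of the members across the 8 arrays were looked up among all genes tested. The arrays fall into SCI and sham, so Pearson's r mainly carries the group difference, and it is given as a description. Gfap was closest to the zinc and manganese carrier Slc39a8 (0.989), the amino acid carrier Slc7a8 and the lysosomal hexosaminidase Hexa (both 0.988), Apoe and the proton pump subunit Tcirg1 (both 0.987). Gja1 was closest to the blood cell gene Was (0.990), the amino acid carrier Slc7a7 (0.989), the adaptor Shc1 and the lysosomal galactosidase Glb1 (both 0.988), and the adaptor Lat2 (0.987).

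Slc1a2 was closest to Scn3b, a sodium channel subunit (0.994), Dnm1l, which divides mitochondria (0.992), the synaptic phosphatase Synj1 (0.991), the leak channel Nalcn (0.989) and the kinesin light chain Klc1 (0.984). Of these 5, Dnm1l, Synj1 and Klc1 fell (-0.33, -0.35 and -0.36), and Scn3b and Nalcn had -0.34 and -0.25 and did not pass (limma adjusted p = 0.061 and 0.083). Of the 5 genes closest to Gfap and the 5 closest to Gja1, all 10 rose, by 0.76 to 1.88. Genes picked for likeness to a gene that rose or fell move the same way through that choice, so these counts are not separate results. Without SCI 3, sham 1 and sham 2, Dnm1l, Synj1 and Klc1 (limma adjusted p = 0.17, 0.17 and 0.19) and, of those near Gja1, Glb1 and Lat2 (0.051 and 0.062) did not pass.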

How the data were processed

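Messenger RNA of spinal cord was measured on 8 arrays, 4 SCI and 4 sham, grouped by the injury label and numbered in the order of the sample list, which pairs no arrays. The authors made the deposited log2 values with Affymetrix Expression Console and RMA, per the submitters' processing notes. RMA subtracts background, evens out the distributions of the arrays and gives 1 value for each probe set. Versions, the probe library and the build were not given in the sources used here. No depth applies to arrays, and their number limits precision. Without detection calls, a dim gene is not called absent.

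Of 36685 probe sets, 18511 had 1 symbol, 575 several and 17599 none here. For 291 symbols with several probe sets the one with the highest mean was kept, giving 18166 genes. SCI was compared with sham by limma 3.58.1 under R 4.3.3 (no covariate, two-sided, Benjamini-Hochberg over all genes, call at adjusted p under 0.05). The fit was tested on simulated data with independent noise for each gene, which do not cover differences between arrays shared by many genes. Promoter windows came from RefSeq on GRCr8; all 9 symbols matched. All 9 genes are named; from each related list, up to 4 higher and 4 lower genes with the smallest p and fixed close relatives, and for likeness the 5 highest Pearson r, leaving out symbols of uncharacterised loci, small RNAs and olfactory or vomeronasal receptors. Of 17 close relatives, 5 were not analysed here. Rbfox3, Mbp, Hoxc8, Hoxc9, Hoxc10, Hoxa7, Gpnmb, Cd68, Cx3cr1, P2ry12, Tmem119 and Stat3 are named outside this rule, after their values were seen. So are Lcn2, Serpina3n, Steap4 and Aspg. Members and lists were chosen with earlier results of these data known. Alternatives covered array scaling, the spread model, array weights, a filter on dim genes, probe set choice, a covariate and the arrays used.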

Additional observations from a re-analysis of the deposited data

How the results depend on the processing

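No paired analysis was possible because the labels give the SCI and sham arrays no shared replicate numbers. Of the 9 genes, 3 rose in the main analysis and 2 to 4 in the 18 alternatives. Those on probe set choice could not move the differences of the 9 genes, which had 1 probe set each. The number that fell was 2, and it was 1 to 2 without any 1 array, 1 when the title number was a covariate and 0 without SCI 3, sham 1 and sham 2, where 5 arrays were left. Over all genes 1282 fell in the main analysis, 543 with the title number and 284 on those 5 arrays. The difference of filament and transport means, 0.72, was 1.01 among genes at or above the median, a filter that removes Nes and gives the same value as leaving Nes out. It was 0.58 with quantile normalisation, and the cause of that was not tested. Without any 1 array it was 0.67 to 0.77. Nes was between -0.02 (without SCI 3) and 0.2 (without SCI 1) when 1 array was left out. Among all genes, 50.2% of called genes were higher, and 38.8% after centring the arrays on their medians. Of 252 counts in the related lists, 205 stayed within 1.5 times the main count and 47 did not. The brightness of a probe set over background was not measured here, which limits what the dim Nes signal can show.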
